A study of Mus musculus with 34 samples.

Results

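The collagen and laminin genes of the mouse were followed through every RNA library of a series on Evx1as, a long noncoding RNA beside the homeobox gene Evx1. Members were all genes whose symbol has the form of a collagen chain (Col, a number, a, a number) or of a laminin alpha, beta or gamma chain (Lama, Lamb or Lamc and a number). The rule used names only, no measured value. It found 54 of the 37145 genes in the culture tables and 55 of the 46785 genes in the embryo tables, 55 genes in all, since Col26a1 was listed in the embryo tables only. Of these 55 genes 29 reached 1 FPKM (the deposited unit, a gene's fragments divided by its transcript length and by the mapped fragments of the library, which allows levels of genes of unequal length to be compared) in at least 1 library.

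The groups were as follows. The KI cultures (3 libraries) were mouse embryonic stem cells labelled 4x polyA KI, taken 4 days after withdrawal of LIF, the cytokine that keeps such cells undifferentiated. The WT cultures (3 libraries) were CJ9 cells under the same withdrawal and for the same time, and both lines were of the strain 129S1/SVImJ. No label gives the site of the insertion, the number of clones or whether replicates were separate cultures, so a KI to WT difference is a difference between these 2 lines, and p-values measure the spread between these samples, which may be technical. The embryo libraries came from embryos of the strain C57/B6 at embryonic day 7, which were cryosectioned. Regions were cut out by laser, and their RNA went through Geo-seq, a method for small tissue pieces. They comprised 5 Evx1as-/- and 3 Evx1as+/- mesoderm sections, 1 Evx1as-/- and 1 Evx1as+/- anterior epiblast library of layers 4 to 6, and 5 Evx1as-/- and 6 Evx1as+/- primitive streak sections, numbered by layer from 1 to 11 with no direction given. No wild-type embryo was among them, so both genotypes carry at least 1 Evx1as mutant allele. The labels do not say which embryo a section came from. Every p-value over sections is too small wherever several of them came from the same animal. In 3 more sections the title and the source label named different regions, and they entered no comparison.

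The libraries differed in how much they held. Between 12758 and 13073 genes reached 1 FPKM in the cultures and between 6806 and 10959 in the sections, and read depth is unknown because no counts were among the values used. Evx1as (5730457N03Rik) was at 0.0674 to 0.137 FPKM in KI cultures, against 3.94 to 5.99 FPKM in WT cultures. In Evx1as-/- sections it was listed at 0 in 9 of 11 libraries and reached 0.159 FPKM, against a highest value of 4.57 FPKM in Evx1as+/- sections, 2 of which were also listed at 0. In the sections the direction was that of the genotype labels, while the culture labels give no insertion site and so state no direction. Streak sections had the streak genes T and Mixl1 and the epiblast genes Cdh1 and Pou5f1 above mesoderm sections, and mesoderm sections had Gata6 and Kdr above streak sections. In each case the adjusted p was under 0.05. These genes come from lists whose other members did not all follow. Of 7 nascent mesoderm markers tested 1 was higher and 2 were lower in mesoderm, and after scaling of the libraries 0 and 2. Of 6 epiblast markers tested 3 were lower. Gata6 is from the parietal endoderm list (2 of 4 higher) and Kdr from the endothelium and blood list (1 of 2 higher). Of all genes 8.04% were lower and 0.579% higher.

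Basement membranes are sheets of matrix beneath epithelia. Laminin trimers, each of an alpha, a beta and a gamma chain, assemble first on the cell surface, and a network of collagen IV, a trimer of Col4a1 and Col4a2 products in most tissues, is bound to them through nidogen and perlecan. In the early mouse embryo such a membrane separates the epiblast from the visceral endoderm, it is breached where cells leave the epiblast at the primitive streak, and parietal endoderm lays down the thick Reichert's membrane outside the embryo. The fibrillar collagens form the fibres of interstitial matrix, and the fibril-associated, short-chain, anchoring-fibril and transmembrane collagens attach to fibres, membranes or cell surfaces.

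In the cultures 21 members reached 1 FPKM, in the sections 16, and 8 did so in both: Col4a1, Col4a2, Col18a1, Col27a1, Col9a3, Lama5, Lamb1 and Lamc1. The 13 members that did so in cultures but not in sections included the fibrillar chains Col1a1, Col1a2, Col2a1 and Col5a1 and the laminin chains Lamb2 and Lamb3. The 8 that did so in sections but not in cultures were Lama1, the transmembrane collagens Col13a1, Col23a1 and Col25a1, and Col26a1, Col6a1, Col6a5 and Col9a1. The 8 shared members were 38.1% of the 21 and 53.3% of the 15 section members listed in both kinds of table, while of all genes in both 86% of those at 1 FPKM in a culture were so in a section and 69.4% the other way round. The embryo and culture tables were normalized separately, so these sets are a description. The remaining 26 members stayed under 1 FPKM everywhere, among them Col3a1, Col4a3 to Col4a6, Lama2, Lama3, Lama4 and Lamc3.

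The laminin alpha chains differed between both kinds of material. Lama5, the alpha chain of adult epithelial basement membranes, was at 40.2 to 90.4 FPKM in the cultures and at most at 1.35 FPKM in any section. Lama1, the first alpha chain of the implanting embryo, stayed under 0.496 FPKM in every culture and reached 2.26 FPKM in a streak section. Within a library the comparison needs no common scale: Lama5 exceeded Lama1 in 6 of 6 cultures and in 13 of 24 sections, while Lama1 exceeded Lama5 in the other 11 sections. Lama1 reached 1 FPKM in 3 sections and was listed at 0 in 7, and Lama5 reached 1 FPKM in 2. Most of these orderings in sections therefore compare values under 1 FPKM.

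The first comparison sets KI cultures against WT cultures, both 4 days after withdrawal of LIF. KI cultures had less mRNA for both collagen IV chains, for the fibrillar chains Col5a1 and Col1a1, and for the laminin chains Lamb1, Lamb2, Lamb3 and Lamc1. Col4a2 had the largest log2 change of the members tested, averaging 2.44 ± 0.198 FPKM in KI cultures, against 21.4 ± 7.50 FPKM in WT cultures (SD, n = 3 each). The multiplexin Col18a1 differed by less than the spread between replicates, and 1 member, Col16a1, rose. Of the 54 members 18 averaged 1 FPKM or more in the 6 libraries and were tested, and of these 10 fell, 1 rose and 7 did not pass (limma, adjusted p under 0.05 over 13133 genes). Of all genes tested 16.2% fell and 16.2% rose, 32.4% in either direction. The median log2 change was -0.66 over the 18 members and 0.02 over all genes. Fold changes are on the log2(FPKM + 1) scale, which understates the change of genes near or under 1 FPKM. The cultures are bulk samples, in which fewer cells of a type and less RNA per cell cannot be told apart.

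**Figure D1:**
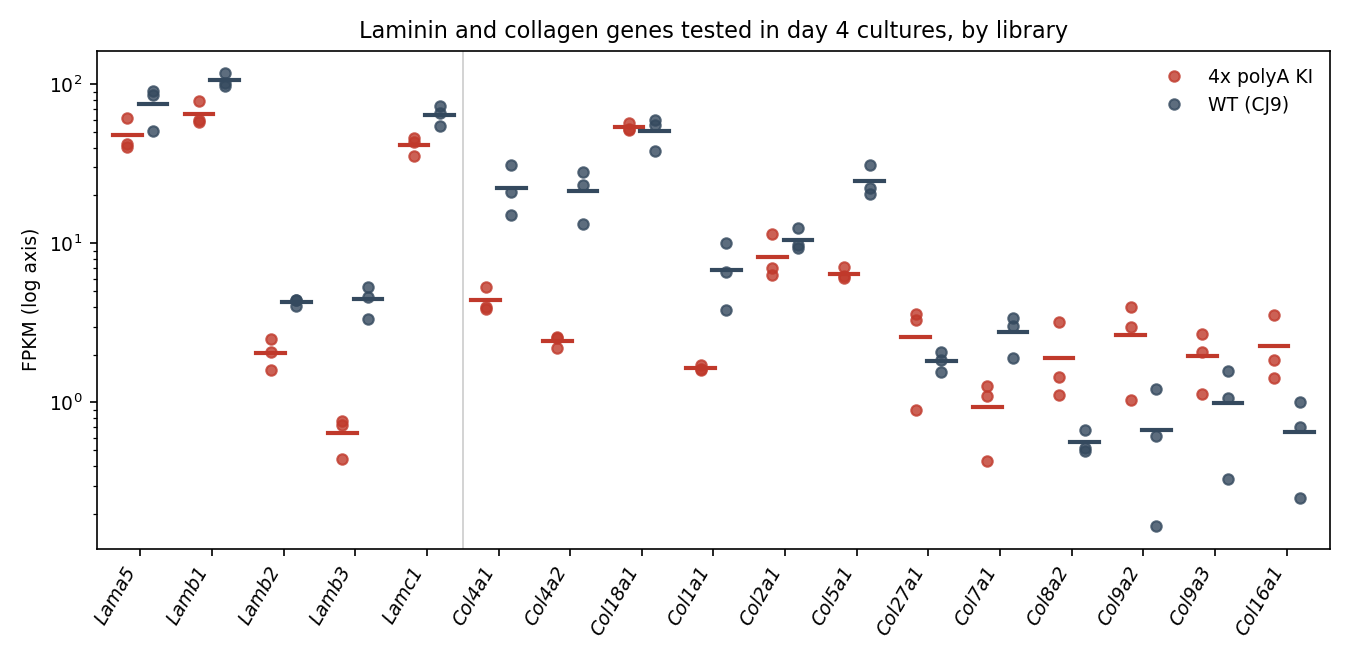
FPKM (log axis) of 17 of the 18 laminin and collagen genes tested in day 4 cultures, with 1 point per library and a bar at the mean of 3, KI to the left of WT. The KI points of Col4a1, Col4a2, Col5a1 and Lamb3 lie below every WT point of the same gene, and those of Col18a1 lie among the WT points.

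Col4a1 (ENSMUSG00000031502.9, chromosome 8, 11198423 to 11312826 in mm10) and Col4a2 (ENSMUSG00000031503.13, chromosome 8, 11312805 to 11449287) encode the chains of the collagen IV network. Col4a1 was at 3.98, 3.86 and 5.30 FPKM in KI cultures 1 to 3, against 21.1, 31.1 and 15.1 FPKM in WT cultures 1 to 3 (log2 change -2.07, SE 0.25, adjusted p = 0.00116). Col4a2 was at 2.21, 2.57 and 2.55 FPKM in KI cultures, against 23.1, 27.9 and 13.2 FPKM in WT cultures (log2 change -2.64, SE 0.26, adjusted p = 0.000518). For both genes the groups did not overlap, and WT culture 3 was the lowest of the WT cultures. All 4 other collagen IV chains (Col4a3 to Col4a6) were below the filter, with at most 0.522 FPKM in any culture. Col4a1 exceeded Col4a2 in all 3 KI cultures and in 2 of 3 WT cultures. Genes of chromosome 8 had a median log2 change of -0.34, and after the median of its chromosome was subtracted from each gene both calls held, with Col4a1 at -1.74 (adjusted p = 0.00268) and Col4a2 at -2.31 (adjusted p = 0.00101).

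Because both chains moved together, the stretches around their starts are shown. The genes lie head to head and overlap by 22 bases (chromosome 8, 11312805 to 11312826, mm10), and the promoter windows share 78 bases. Whether reads were counted by strand is not given in the sources used here, so reads in the overlap could count for either gene. Each line gives 250 bases before and 50 after the start, from RefSeq on GRCm38.p6, 5′ to 3′ on the gene's own strand. Col4a1 is chr8:11312777-11313076 on the minus strand and Col4a2 is chr8:11312555-11312854 on the plus strand. Capitals mark a CCAAT box (CCAAT) or a GC box (GGGCGG) read on either strand.
Col4a1: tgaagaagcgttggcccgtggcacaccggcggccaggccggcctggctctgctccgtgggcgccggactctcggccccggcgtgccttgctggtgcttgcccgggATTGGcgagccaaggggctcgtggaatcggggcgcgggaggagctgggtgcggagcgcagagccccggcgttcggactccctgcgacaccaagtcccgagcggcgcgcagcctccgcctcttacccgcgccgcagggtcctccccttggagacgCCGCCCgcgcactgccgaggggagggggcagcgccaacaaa
Col4a2: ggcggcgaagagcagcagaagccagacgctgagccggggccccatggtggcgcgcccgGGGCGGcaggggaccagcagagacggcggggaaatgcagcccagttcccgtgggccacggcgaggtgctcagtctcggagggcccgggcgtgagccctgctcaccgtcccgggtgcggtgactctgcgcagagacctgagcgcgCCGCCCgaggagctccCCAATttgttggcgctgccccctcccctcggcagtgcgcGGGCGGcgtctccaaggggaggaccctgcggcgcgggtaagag
The windows hold 74% and 73.7% G and C. Col4a1 has 1 CCAAT box 145 bases before its start and 1 GC box 9 bases after it. Col4a2 has 1 CCAAT box 32 bases before its start, and GC boxes 192 and 48 bases before and 7 bases after it. The GC box after each start is 1 and the same stretch of bases, which lies in the part the windows share and is read on opposite strands. Within a window no marked match overlaps another. Of 32851 promoters of 300 bases 37.4% hold a CCAAT box and 35.7% a GC box. Neither window holds TATAAA, found in 13.6% of promoters, or CCCTNCCCC, found in 9.48%. These matches describe the letters only.

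The laminin chains that are most abundant in early basement membranes had smaller log2 changes than collagen IV. Lamb1 (chromosome 12), the beta chain that pairs with Lamc1 in most embryonic laminins, was at 79.1, 57.9 and 59.5 FPKM in KI cultures, against 117, 102 and 97.7 FPKM in WT cultures (log2 change -0.69, SE 0.15, adjusted p = 0.0113). Lamc1 (chromosome 1), the gamma chain of nearly all early laminins, was at 43.1, 45.8 and 35.4 FPKM in KI cultures, against 66.1, 72.7 and 54.5 FPKM in WT cultures (log2 change -0.62, SE 0.15, adjusted p = 0.0185). Neither gene's groups overlapped. The Lamc1 call was lost when chromosome medians were subtracted (log2 change -0.30, adjusted p = 0.158), without WT culture 1 (adjusted p = 0.0595) and without WT culture 2 (adjusted p = 0.0617). Lama5 was at 61.4, 40.2 and 42.2 FPKM in KI cultures, against 85.3, 90.4 and 50.6 FPKM in WT cultures, with overlapping groups (log2 change -0.62, SE 0.25, adjusted p = 0.0927), which did not pass. It did pass without WT culture 3 (log2 change -0.88, adjusted p = 0.0204). In every culture Lamb1 exceeded Lamc1, by 1.26 to 1.83 times.

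Lamb3, a beta chain of epithelial laminin, was low in both lines and showed a larger difference. It was at 0.722, 0.438 and 0.765 FPKM in KI cultures, against 4.63, 5.35 and 3.33 FPKM in WT cultures (log2 change -1.72, SE 0.21, adjusted p = 0.00119). The groups were far apart, and the gene met the filter only through its WT values, as each KI value was under 1 FPKM. Lama3, an alpha chain of epithelial laminin, was under 0.432 FPKM in every culture and was not tested. Lamb3 and Lamc1 lie on chromosome 1, whose genes had a median log2 change of -0.34, and the call of Lamb3 held after that median was subtracted (-1.39, adjusted p = 0.00243). Lamb2, the beta chain of muscle and kidney basement membranes, was at 2.51, 2.06 and 1.60 FPKM in KI cultures, against 4.03, 4.42 and 4.39 FPKM in WT cultures (log2 change -0.80, SE 0.18, adjusted p = 0.0123).

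Of the fibrillar collagens tested Col5a1 (chromosome 2), whose product starts the assembly of collagen fibrils, had the largest change on the log2(FPKM + 1) scale. It was at 6.21, 6.04 and 7.10 FPKM in KI cultures, against 20.5, 31.2 and 22.1 FPKM in WT cultures (log2 change -1.76, SE 0.18, adjusted p = 0.000625). Col1a1, the main chain of collagen I, was at 1.71, 1.63 and 1.60 FPKM in KI cultures, against 6.57, 10.0 and 3.84 FPKM in WT cultures (log2 change -1.48, SE 0.29, adjusted p = 0.00724). Neither gene had overlapping groups. Col1a2, the second chain of collagen I, averaged less than 1 FPKM over all 6 cultures and so was not tested, with 0.0373, 0.113 and 0.0441 FPKM in KI cultures and 1.36, 1.77 and 0.633 FPKM in WT cultures. Col2a1, the cartilage collagen, was at 6.28 to 11.4 FPKM in KI cultures and 9.29 to 12.5 FPKM in WT cultures (log2 change -0.35, adjusted p = 0.270), which did not pass. Genes of its chromosome, 15, had a median log2 change of 0.49, and relative to that median it did pass (-0.85, adjusted p = 0.0282). Col27a1, another cartilage fibrillar chain, also failed to pass (log2 change 0.25, adjusted p = 0.605).

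Col18a1 carries heparan sulphate chains in basement membranes and is the source of endostatin. It was at 57.4, 51.3 and 52.4 FPKM in KI cultures, against 55.1, 59.5 and 38.1 FPKM in WT cultures (log2 change 0.10, SE 0.18, adjusted p = 0.697). The groups overlapped. In each KI culture the gene stood above Lamc1 and below Lamb1, and in each WT culture below Lama5, Lamb1 and Lamc1.

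The collagens of anchoring fibrils and fibril surfaces were low in both lines. Col7a1, which forms anchoring fibrils below epithelia, was at 1.10, 0.429 and 1.27 FPKM in KI cultures, against 3.02, 1.91 and 3.41 FPKM in WT cultures (log2 change -0.97, SE 0.26, adjusted p = 0.0241). That call was lost in 5 of 12 alternatives, and the gene met the filter only through WT cultures, as it averaged 0.933 FPKM in KI cultures. Col16a1, a fibril-associated collagen, was at 3.56, 1.85 and 1.42 FPKM in KI cultures, against 0.697, 1.01 and 0.250 FPKM in WT cultures (log2 change 0.96, SE 0.30, adjusted p = 0.0419). It was the only member to rise, and the call was lost in 8 of 12 alternatives, including 5 of the 6 that left out 1 library. Col16a1 met the filter only through KI cultures, as it averaged 0.651 FPKM in WT cultures. Col8a2 of the short-chain network and the cartilage chains Col9a2 and Col9a3 were also higher on average in KI cultures, with log2 changes of 0.83, 1.09 and 0.59 and adjusted p of 0.0563, 0.0604 and 0.186, and did not pass. Without KI culture 3, Col8a2 (adjusted p = 0.0368) and Col9a2 (adjusted p = 0.0161) did pass. Col12a1 and Col6a2 reached 1 FPKM in a culture and averaged less than that over the 6.

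**Figure D2:**
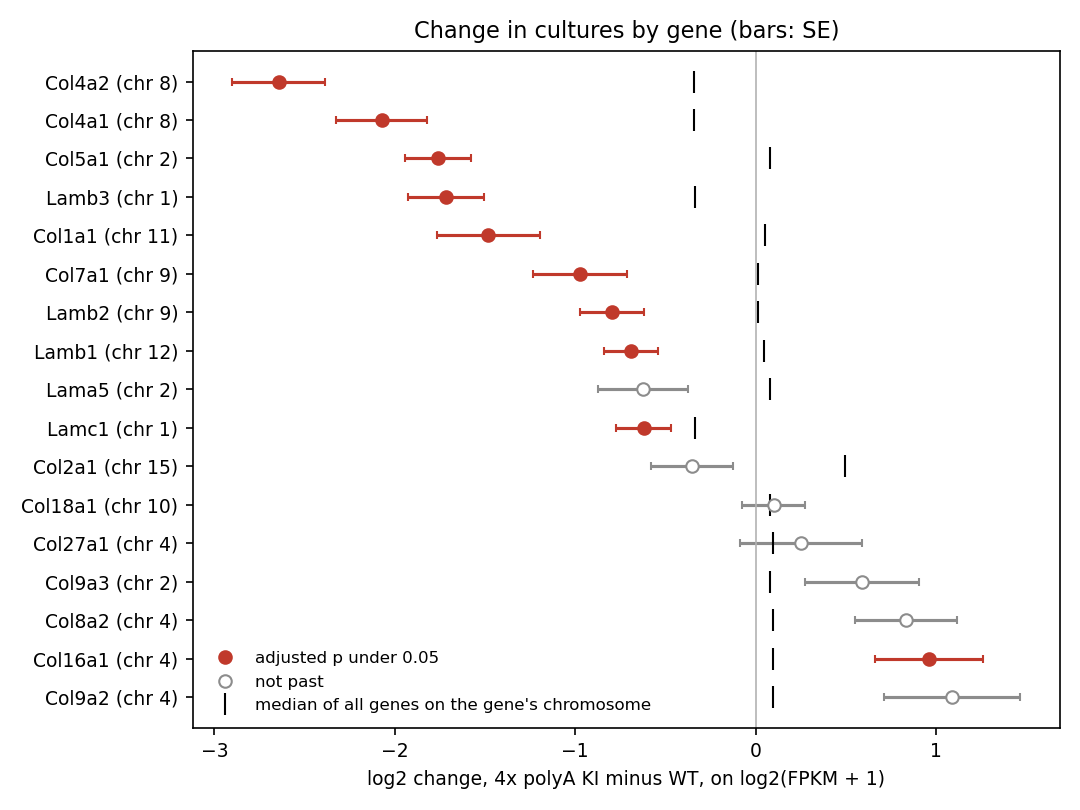
Log2 change, KI minus WT, of 17 of the 18 members tested, with bars of 1 SE. Filled points passed the adjusted p threshold, open points did not, and black ticks give the median change of all genes on the same chromosome, which is -0.34 for chromosomes 1 and 8 and 0.49 for chromosome 15. Col4a2 at -2.64 and Col9a2 at 1.09 mark the ends.

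The libraries came from several sequencing lanes by their file labels, and 1 lane held WT culture 2 and KI cultures 2 and 3. Within that lane 7 members fell and none rose (limma, over 13092 genes, with 1 WT library assumed to vary like the KI libraries): the lower calls of Lamb1 (adjusted p = 0.0760), Lamb2 (0.117), Lamc1 (0.101) and Col7a1 (0.300) and the higher call of Col16a1 (0.445) were lost, and Lama5 passed (log2 change -1.11, adjusted p = 0.0472). Both collagen IV genes, Col5a1, Col1a1 and Lamb3 passed there too. These also passed under each of the other 11 alternatives.

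Genes whose products act on or with these chains were taken from 4 lists, all chosen with earlier results of these data in view. Their counts are to be read against the 16.2% of all genes that fell and the 16.2% that rose. Of 10 basement membrane partners tested 6 fell and 1 rose. Fn1, encoding fibronectin, averaged 25.2 ± 2.00 FPKM in KI cultures, against 205 ± 28.4 FPKM in WT cultures (log2 change -2.97, adjusted p = 6.7e-05). Hspg2, encoding perlecan, averaged 56.2 ± 9.93 against 141 ± 26.7 FPKM (log2 change -1.30, adjusted p = 0.00191), and Sparc, a collagen-binding glycoprotein, 97.4 ± 10.4 against 213 ± 27.7 FPKM (log2 change -1.12, adjusted p = 0.00108). Smoc1, a Sparc relative, rose (log2 change 1.92, adjusted p = 0.000496).

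Of 19 tested genes that fold and trim collagen 7 fell and none rose. Bmp1, the proteinase that removes the end of procollagen, averaged 4.96 ± 0.599 FPKM in KI cultures, against 28.5 ± 5.92 FPKM in WT cultures (log2 change -2.29, adjusted p = 0.000298). Loxl4, a lysyl oxidase that cross-links collagen, changed by -2.08, Pcolce, which assists Bmp1, by -1.55, and Serpinh1, the collagen chaperone, by -1.35 on the log2 scale, with adjusted p of 0.000518, 0.000608 and 0.00216. The prolyl hydroxylase genes P4ha1, P4ha2 and P4hb were not among those that passed.

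Of 10 receptor genes tested 6 fell and none rose, among them Bcam, a receptor for the Lama5 chain (log2 change -1.22, adjusted p = 0.000745), Itga3, an integrin chain that binds laminin (-1.16, adjusted p = 0.00085), the syndecan Sdc1 (-0.86, adjusted p = 0.00551) and dystroglycan, Dag1 (-0.84, adjusted p = 0.0044). Of 10 matrix proteases and inhibitors tested 3 fell, Mmp9 (log2 change -2.11, adjusted p = 0.00578), Mmp14 (-1.57, adjusted p = 0.000235) and Timp2 (-0.96, adjusted p = 0.00902), while the gelatinase gene Mmp2 rose (0.63, adjusted p = 0.0305). The median log2 change of the tested genes was -0.83 for partners, -0.42 for folding and processing, -0.79 for receptors and -0.43 for proteases and inhibitors, against 0.02 over all genes.

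Markers of cell types moved in the same cultures. The summed level of 8 parietal endoderm markers was 29.3 to 35.6 FPKM in KI cultures, against 184 to 227 FPKM in WT cultures, and all 3 of them that could be tested fell. Krt19 made up most of that sum, with 22.5 ± 2.99 FPKM in KI cultures against 176 ± 18.3 FPKM in WT cultures, while Sox7, Srgn, Thbd, Plat and Pth1r averaged under 1 FPKM in each line. The 8 nascent mesoderm markers found summed to 43.4 to 55.2 FPKM in KI cultures, against 210 to 344 FPKM in WT cultures, and 5 of 6 tested fell. The summed level of 9 feeder fibroblast markers was 182 to 210 FPKM in KI cultures, against 430 to 624 FPKM in WT cultures. Tagln made up most of that sum, with 156 to 181 FPKM in KI cultures and 398 to 550 FPKM in WT cultures, and of the 4 feeder markers tested 2 fell (Tagln and Acta2), 1 rose (Thy1) and 1 did not pass. The 5 trophoblast markers summed to 3.99 to 4.98 FPKM in KI cultures, against 23.9 to 65.1 FPKM in WT cultures. The 11 visceral endoderm markers summed to 8.98 to 11.7 FPKM in KI cultures, against 12.3 to 25.6 FPKM in WT cultures, and the 1 tested, Dab2, fell. Other lists ran the other way. Epiblast markers summed to 1716 to 1959 FPKM in KI cultures, against 779 to 933 FPKM in WT cultures, and of 8 tested 7 rose and 1 fell. The 5 definitive endoderm markers summed to 56.9 to 73.5 FPKM in KI cultures, against 11.5 to 12.2 FPKM in WT cultures. Of 3 tested 2 rose (Trh and Foxa2) and Cxcr4 fell. Trh made up most of that sum in the KI cultures, with 52.5, 66.8 and 57.9 FPKM in KI cultures 1 to 3. The part of any of these lists in the collagen and laminin result was not tested.

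The sections gave lower and more scattered values. No member reached 1 FPKM in all 24 sections. Col4a1 came nearest, at 1 FPKM or more in 20, followed by Lamb1 in 15, Lamc1 in 14, Col18a1 and Col23a1 in 12 each and Col4a2 in 10. Lama5 was above 0 in every section but reached 1 FPKM in 2. Col4a1 exceeded Col4a2 in 23 of 24 sections, and Lamb1 exceeded Lamc1 in 16. Col20a1 and Col9a2 were listed at 0 in every section. The upper end of the deposited interval lay a median of 25.3% above the value for Col4a1 in sections, and 22.2% in cultures. For Col4a2 the median was 39.7% in sections and 27.8% in cultures. The widest was 45.1% in a section and 39.4% in a culture for Col4a1, and 283% and 48.8% for Col4a2.

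The second comparison asks whether collagen and laminin levels differed between Evx1as-/- and Evx1as+/- sections, and no member passed. In the streak 5 members were tested (Col18a1, Col4a1, Col4a2, Lamb1 and Lamc1) and none was called or had an unadjusted p under 0.05, where 0.0201% of 9932 genes fell and none rose (limma). In the mesoderm the 5 tested were the same but for Col23a1 in place of Col18a1, again with 0 called and 0 at an unadjusted p under 0.05, where 0.196% of 8695 genes rose. With both regions in 1 fit 6 members were tested, 0 passed and 0 had an unadjusted p under 0.05, where 1.13% of 9527 genes rose and 0.115% fell, 1.25% in either direction. The difference between the genotype effects in mesoderm and in streak was called for none of 6 members, 0 of them at an unadjusted p under 0.05 (0% of 9527 genes called).

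Within the streak Col4a1 ranged from 0.803 to 13.0 FPKM with a median of 1.03 in 5 Evx1as-/- sections, and from 0.969 to 15.3 FPKM with a median of 3.56 in 6 Evx1as+/- sections. The log2 change, adjusted for layer, was -0.33 (SE 0.57, adjusted p = 0.849). Lamc1 ranged from 0.854 to 11.5 FPKM with a median of 1.90 in Evx1as-/- sections, and from 0.744 to 10.2 FPKM with a median of 1.43 in Evx1as+/- sections (log2 change 0.27, SE 0.47, adjusted p = 0.849). Both genes overlapped over almost the whole range. The log2 changes of Lamb1 (0.22, SE 0.32), Col4a2 (0.21, SE 0.53) and Col18a1 (0.04, SE 0.36) were smaller than their errors.

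In the mesoderm Lamc1 was at 0.791, 3.29, 1.67, 0.858 and 1.27 FPKM in Evx1as-/- layers 3, 5, 7, 9 and 11, against 0.305, 0.880 and 0.343 FPKM in Evx1as+/- layers 7, 9 and 11 (log2 change 0.67, SE 0.45, adjusted p = 0.513). Col23a1, a transmembrane collagen, was at 1.40, 1.79, 1.68, 2.11 and 3.17 FPKM in Evx1as-/- layers 3 to 11, against 2.07, 0.416 and 1.57 FPKM in Evx1as+/- layers 7, 9 and 11 (log2 change 0.54, SE 0.39, adjusted p = 0.553). The groups overlapped in both cases. Col18a1, whose mean was below the filter there, was at 1.36, 0.736, 0.505, 0.704 and 0.480 FPKM in Evx1as-/- layers 3 to 11, against 0.233, 0 (listed) and 0.0505 FPKM in Evx1as+/- layers 7, 9 and 11, with no overlap and no test. The share of all genes without overlap was not counted. Those Evx1as+/- sections had 8057, 7949 and 7025 genes at 1 FPKM, against 8420 to 9403 in the Evx1as-/- mesoderm sections. In the mesoderm fit all genes had a median log2 change of 0.31. Over both regions the member furthest from 0 relative to its error was Col18a1 (log2 change 0.30, SE 0.24, adjusted p = 0.502). The median change of all genes in that fit was 0.24. Visceral endoderm markers stood out in 2 Evx1as-/- sections, streak layer 11 (summed level 628 FPKM over 11 markers) and mesoderm layer 9 (406 FPKM), against at most 28.3 FPKM in Evx1as+/- streak or mesoderm sections. Without those 2 sections no member passed either, and the log2 change of Col4a2 over both regions was -0.14 in place of 0.13.

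The third comparison asks which members differed between mesoderm and streak sections of the same genotype and layer, in 7 pairs. No member passed, although 8.04% of 9146 genes fell and 0.579% rose, 8.62% in either direction. Of the 6 members tested 2 had an unadjusted p under 0.05 (limma), as did 2499 of the 9146 genes. All genes had a median change of -0.34, and with the libraries scaled 28 genes fell and 35 rose, so the share of lower calls depends on that shift.

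Col18a1 was lower in the mesoderm section of all 7 pairs. It was at 0.736, 0.505, 0.704 and 0.480 FPKM in Evx1as-/- mesoderm layers 5, 7, 9 and 11, against 1.09, 3.23, 1.77 and 1.86 FPKM in the streak sections of those layers. In Evx1as+/- layers 7, 9 and 11 it was at 0.233, 0 (listed) and 0.0505 FPKM in mesoderm, against 0.502, 2.60 and 1.12 FPKM in streak. Each of these mesoderm values was at or under 0.736 FPKM, so the gene met the filter only through the streak sections. The log2 change was -0.94 (SE 0.29, adjusted p = 0.0666), and in a fit of all 19 sections without pairing it was -0.89 and passed (adjusted p = 0.0206). That fit drops the pairing and also adds 5 sections, among them both of streak layer 1. It called more genes lower and fewer higher: 1677 of 9527 fell and 46 rose, against 735 and 53 of 9146 in the paired fit. Without pairing over the same 14 sections, a fit chosen after seeing the data, no member passed (Col18a1 adjusted p = 0.0706). After scaling, its mean fell below the filter and it was not tested.

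Col23a1 went the other way in 5 of 7 pairs. In Evx1as-/- layers 5, 7, 9 and 11 it was at 1.79, 1.68, 2.11 and 3.17 FPKM in mesoderm, against 0.569, 0.171, 0.118 and 0.184 FPKM in streak, with no overlap. In Evx1as+/- layers 7, 9 and 11 it was at 2.07, 0.416 and 1.57 FPKM in mesoderm, against 2.19, 0.925 and 0.0455 FPKM in streak, where the groups overlapped. The log2 change was 0.87 (SE 0.33, adjusted p = 0.110), and 0.79 over the 19 sections without pairing, where it passed (adjusted p = 0.0428), against an adjusted p of 0.124 over the 14. The difference between genotypes in this region effect was 0.84 (SE 0.51, adjusted p = 0.999) over the 19 sections.

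Both collagen IV chains were higher on average in mesoderm, Col4a1 in 6 of 7 pairs (log2 change 0.52, SE 0.35, adjusted p = 0.360) and Col4a2 in 5 of 7 (0.54, SE 0.37, adjusted p = 0.363), and neither passed. The laminin chains were lower on average, Lamb1 in 5 of 7 pairs (log2 change -0.60, SE 0.28, adjusted p = 0.188) and Lamc1 in 5 of 7 (-0.28, SE 0.29, adjusted p = 0.554). The median change of all genes was -0.34, so Lamc1 was not below a typical gene. After scaling the log2 change was -0.33 for Lamb1 and -0.09 for Lamc1, and 0.79 for Col4a1 and 0.63 for Col4a2, and none passed. Lamb1 passed over the 19 sections without pairing (-0.72, adjusted p = 0.0484) and not over the 14 (adjusted p = 0.218). Lama5, below the filter, was lower in mesoderm in 6 of 7 pairs, and Lama1, also below it, higher in 6 of 7. Among the partners Fn1 rose in mesoderm (log2 change 0.76, adjusted p = 0.0395), Nid2, encoding the nidogen that links laminin to collagen IV, fell (-1.10, adjusted p = 0.0269), and so did the collagen receptor gene Ddr1 (-1.48, adjusted p = 0.012). These were 2 of 4 basement membrane partners and 1 of 6 receptors tested. After scaling 2 partners were higher, none was lower, and no receptor was called. None of 11 folding genes or 4 proteases and inhibitors passed, as deposited or scaled.

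**Figure D3:**
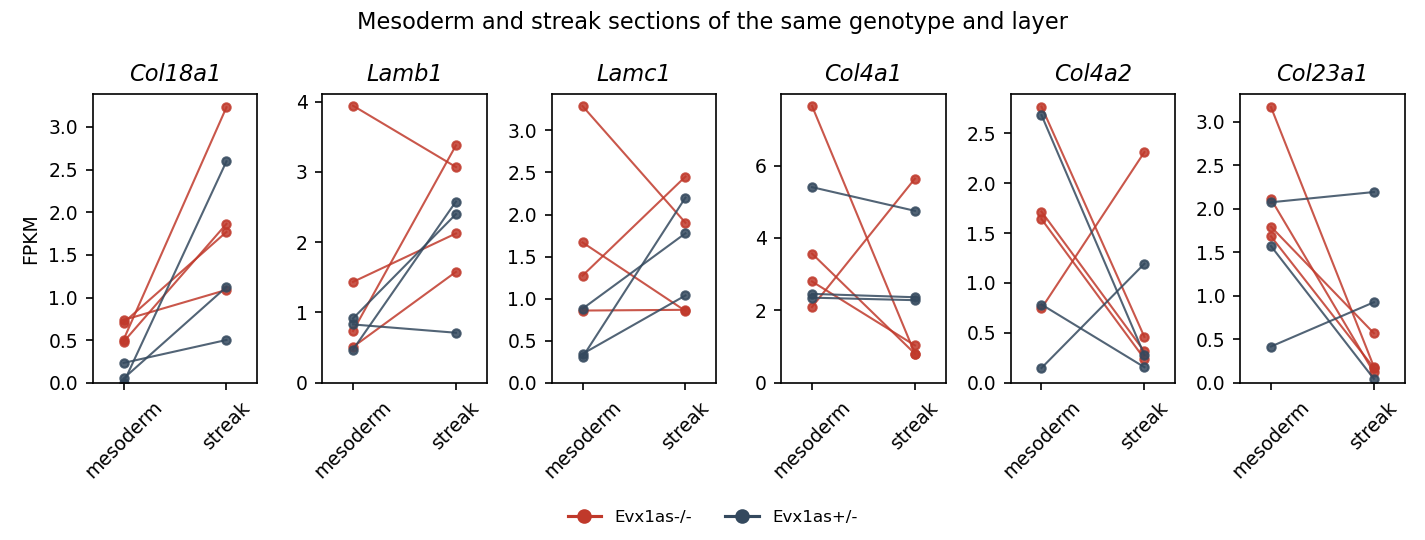
FPKM in mesoderm (left) and streak (right) sections of the same genotype and layer, with 1 line for each of 7 pairs. Col18a1 is lower in mesoderm in all 7 pairs, Col4a1 is higher in mesoderm in 6 of 7, and Col23a1 is higher in all 4 Evx1as-/- pairs and in 1 of 3 Evx1as+/- pairs.

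The fourth question concerns position along the streak and mesoderm. In the streak 5 members were tested for a slope over layer number and none passed (limma). Of 9932 genes 0.0705% fell with layer number and 0.0101% rose, 0.0805% in either direction. At an unadjusted p under 0.05 were 3 of the 5 members and 1666 of the 9932 genes. The slopes, as log2 change per layer number, were -0.17 for Lamc1 (SE 0.07, adjusted p = 0.237), -0.11 for Lamb1 (SE 0.05, adjusted p = 0.262), -0.16 for Col4a2 (SE 0.08, adjusted p = 0.295) and -0.12 for Col4a1 (SE 0.08, adjusted p = 0.458). Without layer 1 the slope of Lamc1 was 0.04 and that of Col4a1 was 0.14. In the mesoderm none of 5 members passed, none had an unadjusted p under 0.05, and each adjusted p was 1, where 0.0115% of 8695 genes were called.

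Layer 1 of the streak stood apart in both genotypes, and the following values are a description with no test, since the layer was singled out after its values were seen. Col4a1 was at 13.0 FPKM in the Evx1as-/- and 15.3 FPKM in the Evx1as+/- layer 1 section, against 0.803 to 7.65 FPKM (median 2.36) in the 17 other streak and mesoderm sections. Col4a2 was at 6.66 and 8.51 FPKM in those layer 1 sections, against 0.148 to 2.77 FPKM elsewhere. For both chains of collagen IV every other section was lower. The share of all genes that were likewise highest in both layer 1 sections was not counted, here or for the laminin chains below.

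Laminin followed the same pattern. Lamc1 was at 11.5 FPKM in the Evx1as-/- and 10.2 FPKM in the Evx1as+/- layer 1 section, against 0.305 to 3.29 FPKM in the other 17. Lamb1 was at 4.96 and 6.24 FPKM in layer 1, against 0.473 to 3.94 FPKM elsewhere. Lama1 was at 2.16 and 2.26 FPKM in layer 1, against 0 (listed) to 1.77 FPKM elsewhere. These 5 genes together encode a complete early laminin trimer and the collagen IV network. In each case the highest of the other 17 sections was Evx1as-/- mesoderm layer 5. Lama5 was at 0.432 FPKM in the Evx1as-/- layer 1 section, within the range of the other 17, and at 1.35 FPKM in the Evx1as+/- one, above their highest value of 0.632 FPKM. Col18a1 (1.00 and 0.878 FPKM) and Col23a1 (0.917 and 1.51 FPKM) lay within the range of the others in both layer 1 sections.

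**Figure D4:**
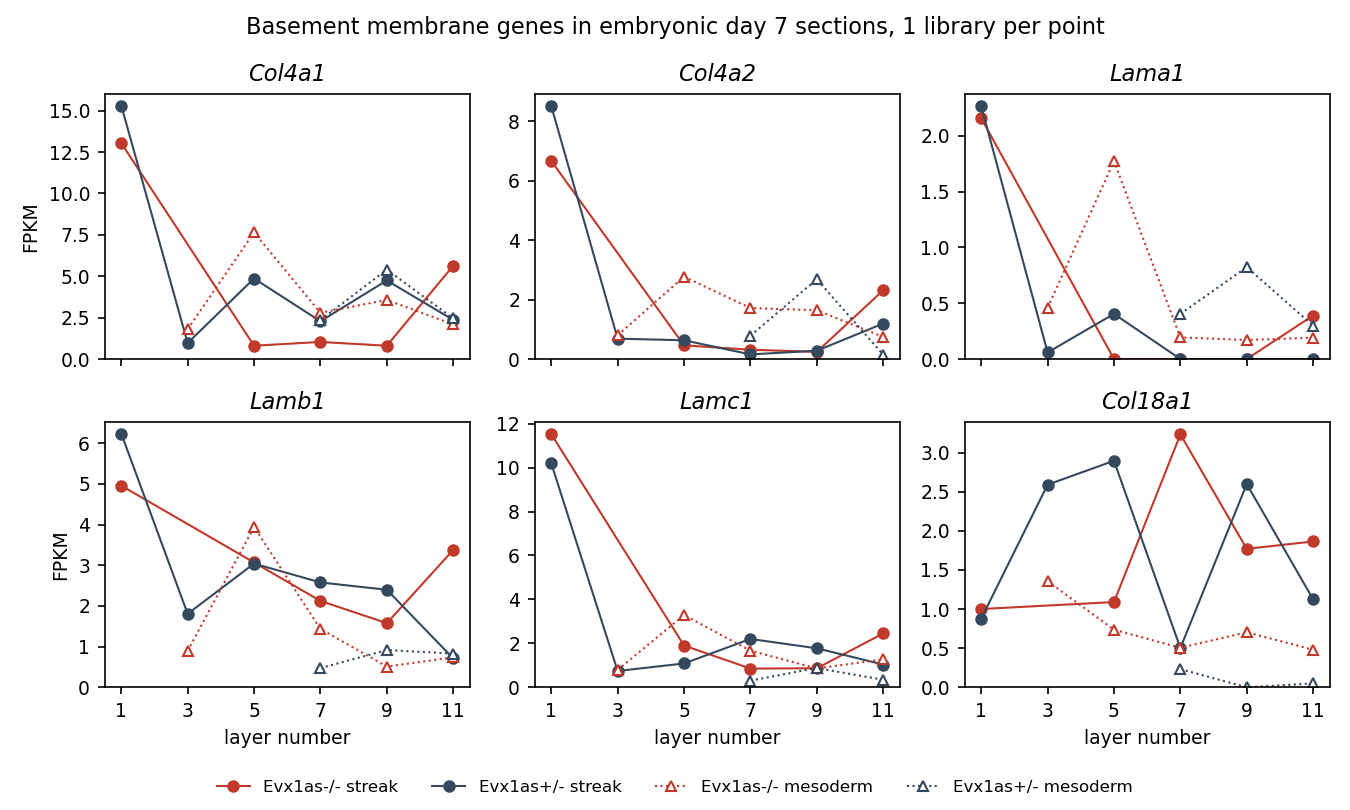
FPKM by layer number of the 5 basement membrane chains and Col18a1 in streak (circles) and mesoderm (triangles) sections of both genotypes, 1 library per point, with lines joining sections of a group. Both streak sections of layer 1 are the highest for Col4a1, Col4a2, Lama1, Lamb1 and Lamc1, with Col4a1 at 13.0 and 15.3 FPKM, and not for Col18a1.

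The summed level of parietal endoderm markers was high in the same sections. The 8 markers summed to 61.8 FPKM in the Evx1as-/- and 73.5 FPKM in the Evx1as+/- layer 1 section, against 2.41 to 36.8 FPKM in the other 17, and the 5 chains summed to 38.3 and 42.5 FPKM, against 3.49 to 19.4 FPKM. All 8 markers reached 1 FPKM in both layer 1 sections, and at most 6 did in any other. Sox7 was at 2.01 and 4.54 FPKM in layer 1 and at most at 0.622 FPKM elsewhere. Plat was at 2.69 and 4.46 FPKM against at most 0.163 FPKM, and Srgn at 33.2 and 40.1 FPKM against at most 16.9 FPKM. Srgn made up most of both layer 1 sums. Krt19 was also highest in both layer 1 sections, while other markers were not. Gata6 was at 6.49 and 3.31 FPKM there, against 8.47 FPKM in Evx1as-/- mesoderm layer 5. Pth1r was at 5.98 and 2.91 FPKM and Snai1 at 2.55 and 6.57 FPKM, against 9.54 and 24.9 FPKM in Evx1as+/- mesoderm layer 9. For Thbd the Evx1as+/- layer 1 section was below Evx1as-/- mesoderm layer 3 (1.77 FPKM). The list also holds genes of other embryonic tissue: Snai1, which streak and mesoderm cells express, and Gata6 and Pth1r, which rose in mesoderm over streak. Without Snai1 the sums were 59.2 and 66.9 FPKM in layer 1, against 0.670 to 31.1 FPKM elsewhere. Other measures were high there too. The 5 definitive endoderm markers summed to 443 FPKM in the Evx1as-/- and 209 FPKM in the Evx1as+/- layer 1 section, against 391 FPKM in Evx1as-/- mesoderm layer 5 and at most 127 FPKM in the rest. Trh was the highest of them in each of the named sections, at 331, 87.3 and 238 FPKM, and was at 101 FPKM in Evx1as-/- anterior epiblast. Trophoblast markers summed to 8.79 and 33.04 FPKM in those layer 1 sections, against at most 7.44 FPKM elsewhere. The layer 1 sections also had the most genes at 1 FPKM of the 19 sections, 10559 and 10959, against at most 9911. The part of any of these in the layer 1 values was not tested. In anterior epiblast, which was not in that count, the 8 markers summed to 0.905 FPKM in the Evx1as-/- and 0.151 FPKM in the Evx1as+/- library.

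**Figure D5:**
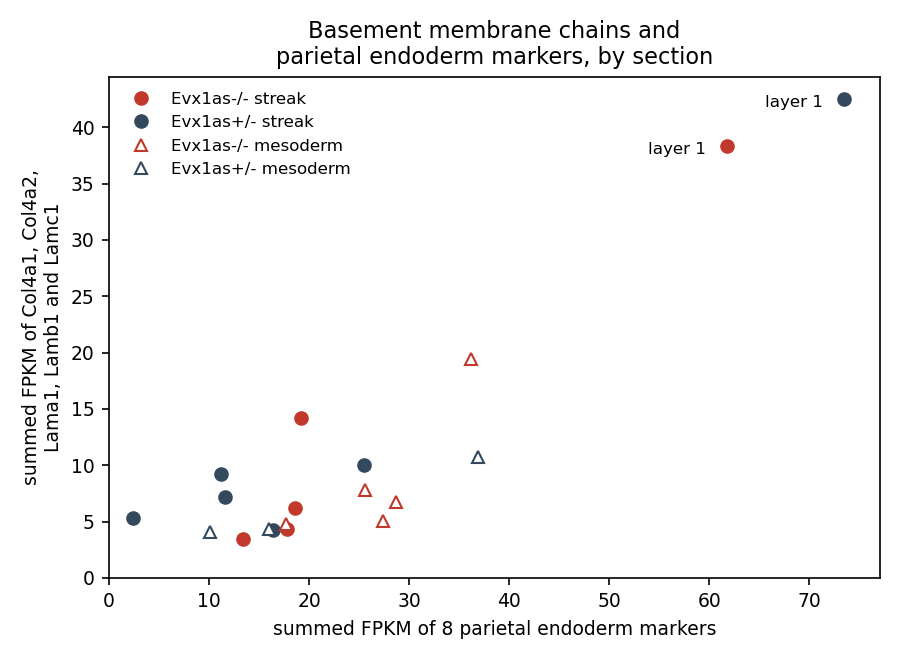
Summed FPKM of Col4a1, Col4a2, Lama1, Lamb1 and Lamc1 against the summed FPKM of 8 parietal endoderm markers, 1 point for each of 19 sections. Both layer 1 streak sections lie at the upper right (61.8 and 38.3, and 73.5 and 42.5), and the Evx1as-/- mesoderm section of layer 5 is the next highest in chains, at 19.4 FPKM.

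The last comparison sets anterior epiblast, 1 library per genotype, against 11 streak sections, so its spread is that of the streak sections. None of 5 members passed and none had an unadjusted p under 0.05, where 0.304% of 9854 genes fell and 0.101% rose, 0.406% in either direction (limma). Col18a1 was at 4.74 FPKM in the Evx1as-/- and 1.92 FPKM in the Evx1as+/- anterior library, against 0.502 to 3.23 FPKM in streak sections (log2 change 0.63, SE 0.44, adjusted p = 0.643), and the first of these was the highest Col18a1 value of any section. Col4a1 was at 0.699 FPKM in the Evx1as-/- and 1.22 FPKM in the Evx1as+/- anterior library, against 0.803 to 15.3 FPKM in streak (log2 change -1.10, SE 0.75, adjusted p = 0.636). Col4a2 was at 0.0184 FPKM in the Evx1as-/- and 0.145 FPKM in the Evx1as+/- one, against 0.156 to 8.51 FPKM in streak, with no overlap (log2 change -1.01, SE 0.73, adjusted p = 0.651). Lamb1 was at 0.454 FPKM in the Evx1as-/- anterior library, below every streak section (lowest 0.712 FPKM), and at 1.46 FPKM in the Evx1as+/- one, and did not pass (log2 change -0.94, SE 0.47, adjusted p = 0.521). Lamc1 did not pass either (-0.55, SE 0.68, adjusted p = 0.796). Of the partner genes Fn1 fell, with 1.41 FPKM in the Evx1as-/- and 0.837 FPKM in the Evx1as+/- anterior library, against at least 6.45 FPKM in every streak section (log2 change -2.43, adjusted p = 0.011). It was the 1 call among 6 basement membrane partners tested, and none of 11 folding genes, 6 receptors or 4 proteases and inhibitors passed.

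Most of the other collagens that reached 1 FPKM in sections did so in few libraries. Col13a1, a transmembrane collagen, did so in 5 of 24 sections, with its highest value, 1.50 FPKM, in Evx1as-/- mesoderm layer 3. It was higher in mesoderm than in streak in 6 of 7 pairs, on values too low to test. Col9a3 and Col27a1 reached 1 FPKM in 3 sections each, Col9a1 and Col26a1 in 2 each, and Col25a1, Col6a1 and Col6a5 in 1 each. Apart from Col27a1, no fibrillar chain reached 1 FPKM in a section. Col1a1 stayed under 0.248 FPKM and was listed at 0 in 16 of 24 sections, Col5a1 stayed under 0.522 FPKM, Col2a1 under 0.734 FPKM and Col1a2 under 0.836 FPKM. The laminin chain Lamb3 stayed under 0.181 FPKM.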

How the data were processed

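The authors deposited 1 gene table per library with FPKM values and an interval around each, per the file headers. CASAVA, TopHat2 version 2.0.11 and mm10 are named in the submitters' processing notes, and the tool that made the FPKM values is not given in the sources used here. Gene positions are those of the embryo tables (mm10). Many positions in the culture tables differ and were not used. Per the labels, libraries were stranded. Where a table repeated an identifier its values were added, and values under 1e-06 FPKM were set to 0. No counts were at hand, so depth and counting error are unknown, and 0 FPKM is a listed value, not absence. Posterior pieces (4 samples) were not analysed here.

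Groups came from the labels. Genes averaging 1 FPKM or more in the libraries fitted were analysed as log2(FPKM + 1) with limma 3.58.1 in R 4.3.3 (trended prior, two-sided, Benjamini-Hochberg adjustment over all genes, threshold 0.05), after the procedure was tested on simulated data. Layer entered genotype fits as a number, and regions were compared within genotype and layer. Anterior libraries were compared with genotype as a term. Members described were those reaching 1 FPKM. Values per sample were given for members that passed or reached 20 FPKM, except 1 member that entered the counts and is not reported here, and partners were named by size of change, at most 4 per list. The members, lists and tests were chosen with earlier results of these data known. Alternatives were median-ratio scaling, a pseudocount of 0.1, no filter, blocks, 1 lane, chromosome centring and leaving out libraries.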

Additional observations from a re-analysis of the deposited data

Results flagged for a closer look

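Among groups of 4 to 10 sections in which a member reached 1 FPKM, 31 sets of values were examined for a highest or lowest section far from the rest, and 14 held one. In unselected sets chance gives about 1 in 20. These sets entered because the member reached 1 FPKM there and all 14 values are the highest of their set, so that rate does not apply.

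Of these 14 values 6 belong to layer 1 of the streak. In the Evx1as-/- layer 1 section Lama1 was at 2.16 FPKM and Lamc1 at 11.5 FPKM. In the Evx1as+/- layer 1 section Col4a1 was at 15.3 FPKM, Col4a2 at 8.51 FPKM, Lama1 at 2.26 FPKM and Lamc1 at 10.2 FPKM, each far above the other sections of its group.

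Evx1as-/- mesoderm layer 5 stood apart from the other mesoderm sections of that genotype for Lama1 (1.77 FPKM) and Lamb1 (3.94 FPKM). In the Evx1as-/- streak, Col26a1 was at 1.31 FPKM in layer 11. In the Evx1as+/- streak, Col13a1 was at 1.07 FPKM in layer 7, Col9a1 at 1.63 FPKM in layer 5, Col9a3 at 1.65 FPKM in layer 9, and Col27a1 and Col6a5 at 1.58 and 1.04 FPKM in layer 11. These 6 values lie near 1 FPKM.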

How the results depend on the processing

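In the cultures 11 members passed, and leaving out 1 library gave 8 to 13. With no filter 14 fell of 54 tested and none rose, while 1776 of 23197 genes fell and 1735 rose. A replicate block gave 1 higher and 10 lower, the same counts as without it; replicate numbers did not pair the cultures (correlations of deviations -0.12, -0.05 and -0.05). In the sections no alternative to the fit as described called a member except the region comparison over all 19 sections with no replicate block. There 3 members passed, where 1677 of 9527 genes fell and 46 rose, against 735 and 53 of 9146 in the fit as described. Over the 14 paired sections without the block 0 members passed, where 198 genes fell and 28 rose. The fit over 19 sections thus differs in both the block and the sections. Leaving out any 1 section gave 0 to 0. Streak genotype with layer as a replicate block called 0 members, as did mesoderm genotype and both regions. Correlations of deviations by layer were 0.48 for the layer 1 streak sections, 0.02 to 0.07 for the other streak layers, 0.01 to 0.04 in mesoderm and -0.02 to 0.17 over the 7 mesoderm and streak pairs. Reversed values, none of them called, were as follows. In the cultures Col18a1 was at a log2 change of -0.20 in 1 lane and -0.093 to 0.22 without 1 library. In the streak, genotype changes were -0.12 for Col18a1 after scaling and -0.14 for Col4a2 without the sections highest in visceral endoderm markers, a choice made after seeing the data, and without 1 section they ranged from -0.13 to 0.16 for Col18a1, from -0.11 to 0.50 for Lamc1 and from -0.14 to 0.52 for Col4a2. In the mesoderm they ranged from -0.0091 to 0.43 for Lamb1, from -0.32 to 0.25 for Col4a1 and from -0.080 to 0.66 for Col4a2. Over both regions Col4a2 was at -0.14 without those sections and at -0.078 to 0.38 without 1 section. Without layer 1, streak slopes were -0.042 for Col18a1, 0.041 for Lamc1 and 0.14 for Col4a1. The cause of each was not tested. Section values near 1 FPKM carry wide deposited intervals, and no depth was at hand to set a limit.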

Other observations

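The 3 sections whose labels name 2 regions gave the following values. In the Evx1as-/- section of layer 3 (title streak, source mesoderm) Lamb1 was at 3.12 FPKM, Lamc1 at 2.35, Col4a1 at 1.04, Col4a2 at 0.355, Col18a1 at 0.977 and Lama5 at 0.708 FPKM, and Col23a1 and Lama1 were listed at 0. In the Evx1as+/- section titled mesoderm layer 3 with streak layer 5 as its source, Col4a1 was at 2.62 FPKM, Col4a2 at 2.79, Lamb1 at 1.33, Lamc1 at 0.304, Col18a1 at 0.632, Col23a1 at 2.36, Lama1 at 0.901 and Col26a1 at 2.55 FPKM, the highest Col26a1 value of any section. It was the 1 section of 24 in which Col4a2 exceeded Col4a1. In the Evx1as+/- section titled mesoderm layer 7 with streak layer 7 as its source, Col4a1 was at 3.53 FPKM, Col4a2 at 1.47, Lamb1 at 0.156, Lamc1 at 0.791, Col18a1 at 0.0911 and Lama1 at 0.180 FPKM. Its Col23a1 value, 3.38 FPKM, was the highest of any section.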
